A study of Mus musculus with 2 samples.

Results

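The genes described here are 10 components and target genes of the Hippo pathway, taken by symbol from the 32285 genes of the matrix: Yap1, Wwtr1, Tead1, Ankrd1, Ccn1, Ccn2, Ajuba, Amotl1, Amotl2 and Lats2. They were picked by symbol and not by a cut on measured values, but with earlier results of these data known. All 10 symbols were found. The study sequenced the RNA of single nuclei from frozen mouse liver with hepatocellular carcinoma (HCC), taken where residual tumour had been cut out. Its 2 samples form 1 group, MRD-HCC, and the labels give the tissue as liver and name no strain, age, genotype or treatment. Both are covered by 1 matrix whose barcodes name no sample, so the nuclei were treated as 1 pooled sample and no spread between animals could be measured.

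The Hippo pathway is a kinase cascade that restrains growth. The kinases Lats1 and Lats2 phosphorylate the co-activators YAP (gene Yap1) and TAZ (gene Wwtr1), which are then held in the cytoplasm and degraded. Without that phosphorylation they enter the nucleus and switch on target genes together with the DNA-binding TEAD proteins. In the liver, YAP activity is known to be low in hepatocytes and higher in bile duct cells, and its release drives overgrowth and tumours. Because the control acts on the proteins, the RNA of Yap1 and Wwtr1 is not a measure of it, and target genes such as Ankrd1, Ccn1 and Ccn2 are the usual readout.

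The filtered matrix held 17169 barcodes with 891 to 125991 unique molecular identifiers (UMIs, each a counted RNA molecule), median 2794. Of 14850 barcodes kept, 6452 (43.4%) were assigned to 17 classes by gates of marker genes. Another 954 met more than 1 gate or tied between classes and were set aside, and 7444 met none. No member was a gate marker. Tead1, Amotl1 and Lats2 each overlap an annotated gene on the same strand (Gm44462, 4930584E12Rik and Gm49361), so their counts could be split. Values are CPM, the UMIs of a gene scaled to 1000000 UMIs in each class. Brackets give exact Poisson 95% intervals for levels and the exact 95% interval of the ratio of 2 Poisson counts for folds. They treat each UMI as independent and cover counting error only, with no spread between nuclei or between animals, so no p-value is given. Where a gene's UMIs sit in few nuclei they are too narrow. A count of 0 stands at its limit of 3 UMIs. A gene was called higher or lower at 2-fold or more with at least 20 UMIs over both classes. Free RNA, which enters every droplet, was measured in 49929 barcodes of 500 to 850 UMIs.

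The tumour nuclei formed 2 classes. The Pkhd1-high class (2143 nuclei, median 7413 UMIs) met at least 3 of 10 markers such as Pkhd1, Peg3 and Dclk1. The hepatocyte-like tumour class (246 nuclei, median 6918.5 UMIs) met Ccnd3, at least 2 hepatocyte genes, and at least 2 of 11 tumour markers such as Gpc3, with Ccnd3 counted among the 11. Nuclei that met the hepatocyte, the Pkhd1-high or the Asz1 or Tinag ductal gate were kept out of it. The hepatocyte gate, at 6 markers, did not exclude nuclei with Ccnd3. Both tumour classes were compared with all hepatocytes (1699 nuclei, median 14791 UMIs) and with ductal nuclei that had Asz1 or Tinag and at least 3 ductal markers (435 nuclei, median 4188 UMIs). Nuclei that met both the Pkhd1-high gate and this ductal gate were set aside and are in neither class. Each class is a range cut from a marker count. Of 2664 nuclei at or above the minimum of the Pkhd1-high gate, 801 were at the minimum and a further 1354 were 1 marker short. The ductal gate had 136 of 666 nuclei at its minimum and 50 that were 1 marker short, and the hepatocyte-like tumour gate had 121 of 360 and 165. Expected free RNA was 3.98% of UMIs in hepatocytes, 8.07% in Pkhd1-high nuclei, 8.88% in hepatocyte-like tumour nuclei and 14.8% in ductal nuclei.

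The ductal label needs a limit. Ccnd3, a cyclin used as a tumour marker, stood at 6205 CPM in these ductal nuclei, beside 5976 in Pkhd1-high nuclei, 5671 in hepatocyte-like tumour nuclei and 250 in hepatocytes. Gpc3, another tumour marker, was at 687 CPM in these ductal nuclei, 180 in Pkhd1-high nuclei, 601 in hepatocyte-like tumour nuclei and 12.1 in hepatocytes. Peg3 was at 525 CPM, below the 1769 of Pkhd1-high nuclei, and H19 at 132, below the 528 of hepatocyte-like tumour nuclei. The duct marker Cftr was at 277 CPM in the ductal nuclei against 8.96 in Pkhd1-high nuclei, while the duct keratin gene Krt19 was at 11.1 against 14.2. Pkhd1, a marker in both gates, was at 4843 CPM in the ductal nuclei and 2914 in Pkhd1-high nuclei, so that name does not set the tumour class above them. It was at 1133 CPM in hepatocyte-like tumour nuclei, 130 in hepatocytes, and 769 in Pkhd1-high nuclei of the Zfp804a or Hmga2 type described below. Whether these ductal nuclei belong to the tumour was not tested. A smaller class of 50 other ductal nuclei (median 3292 UMIs), which by its gate lacked Asz1, Tinag and Ccnd3, had Cftr at 411 CPM and Krt19 at 50.7, and is given beside the main ductal class where the result turns on it. Between these ductal classes, 3 members were called higher in the Asz1 or Tinag nuclei, Ccn1 (2.81-fold, 1.27 to 7.76), Amotl2 (2.77-fold, 1.16 to 8.64) and Ajuba (2.29-fold, with an interval of 0.602 to 19.4 that held 1), and 1 lower, Amotl1 (0.180-fold, 0.0864 to 0.394), where 11.1% and 7.16% of all genes were. Among the 10 members, Ankrd1 was the gene that set the Pkhd1-high tumour apart, Yap1 itself differed little across the epithelial classes, and the Asz1 or Tinag ductal nuclei carried more of most other targets than either tumour class did.

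**Figure D1:**
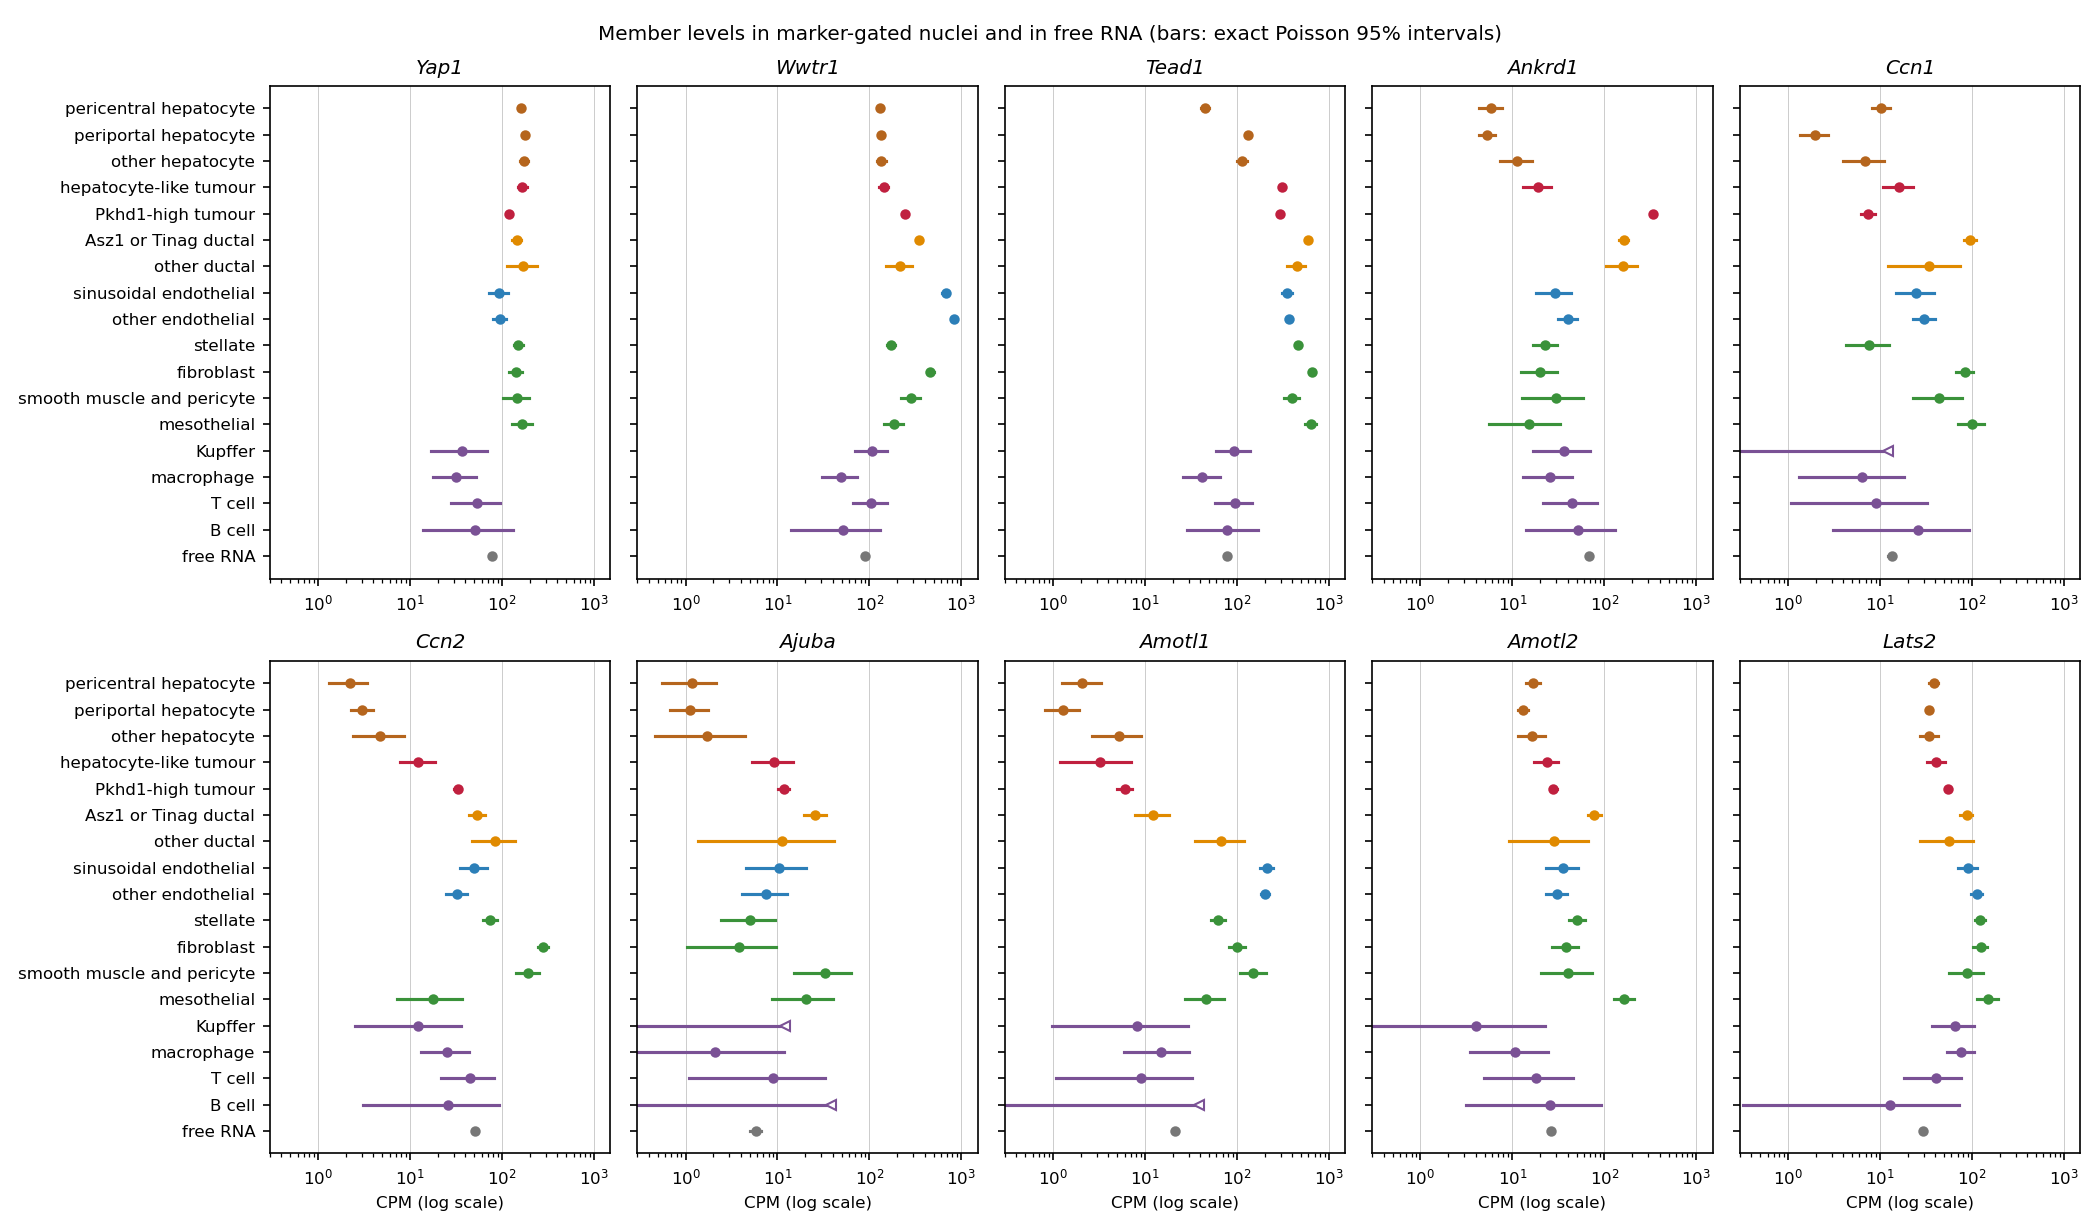
Level of each of the 10 genes in the 17 marker-gated classes and in free RNA, in CPM on a log axis. Points are class totals, bars are exact Poisson 95% intervals, and open triangles mark classes with 0 UMIs at their upper limit. Ankrd1 is highest in Pkhd1-high tumour nuclei (336 CPM), while Wwtr1 and Amotl1 are highest in endothelium.

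Yap1 (chr9:7931999-8004596, minus strand, GENCODE M21 on GRCm38, as for the genes that follow) encodes YAP, the transcriptional co-activator on which the cascade acts. Its level was 172 CPM (167 to 177) in hepatocytes, 167 (149 to 187) in hepatocyte-like tumour nuclei, 145 (128 to 162) in ductal nuclei and 121 (115 to 126) in Pkhd1-high nuclei. Stellate cells (151), fibroblasts (141) and mesothelial cells (166) lay in the same range. The 11 highest classes, from periportal hepatocytes at 176 down to Pkhd1-high nuclei, each differed from the next in the order by no more than counting error. Below them stood other endothelial cells (94.2) and sinusoidal endothelial cells (93.1), and the immune classes were lowest, from 31.7 in macrophages to 54.0 in T cells, under the free RNA level of 77.6. Yap1 was thus slightly lower in the Pkhd1-high tumour than in hepatocytes, 0.701-fold (0.666 to 0.738), and than in ductal nuclei, 0.833-fold (0.736 to 0.946). The hepatocyte-like tumour was within counting error of hepatocytes, at 0.971-fold (0.864 to 1.09). In nuclei thinned to 2000 UMIs, a UMI of Yap1 was seen in 21.0% of Pkhd1-high nuclei (19.3 to 22.8, exact Clopper-Pearson), 28.3% of hepatocytes and 27.6% of ductal nuclei. The unthinned shares were 54.0%, 86.3% and 45.7%, at unequal depths. Macrophages, where Yap1 lay below free RNA, showed a UMI in 6.78% after thinning and 10.9% before, with a median of 3229 UMIs.

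Wwtr1 (chr3:57455649-57575910, minus strand) encodes TAZ, the paralogue of YAP, and had a different order. Its highest levels were in other endothelial cells, 837 CPM (796 to 880), sinusoidal endothelial cells, 677 (620 to 738), and fibroblasts, 458 (418 to 500), each beyond counting error of the next. Ductal nuclei followed at 343 (318 to 370) and Pkhd1-high nuclei at 247 (239 to 254). The hepatocyte-like tumour (142) and the hepatocytes (133) were alike within counting error, 1.07-fold (0.938 to 1.21), and macrophages were lowest at 48.5, below free RNA at 89.3. The Pkhd1-high tumour was 1.85-fold (1.77 to 1.93) above hepatocytes, short of the 2-fold line, and 0.718-fold (0.662 to 0.779) of ductal nuclei. Against the other ductal nuclei, at 214 CPM, it was 1.15-fold (0.838 to 1.63), with an interval that held 1, and Yap1 there was 0.713-fold (0.498 to 1.06). Of the co-activator pair, Wwtr1 and not Yap1 was therefore higher in Pkhd1-high nuclei than in hepatocytes. Both were lower than in the Asz1 or Tinag ductal nuclei, and neither differed beyond counting error from the other ductal nuclei.

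Tead1 (chr7:112679318-112906807, plus strand) encodes a TEAD protein, the DNA-binding partner through which YAP and TAZ reach their targets. It was highest in fibroblasts at 652 CPM (604 to 703), mesothelial cells at 633 (557 to 717) and ductal nuclei at 593 (560 to 628), each within counting error of the next of the 3. Stellate cells followed at 466, beyond counting error below ductal nuclei (1.27-fold, 1.17 to 1.39), and both endothelial classes 353 and 370. The tumour classes were nearly equal, with 311 (286 to 337) in hepatocyte-like and 295 (287 to 303) in Pkhd1-high nuclei, and hepatocytes had 105 (102 to 109). Both tumour classes thus stood between hepatocytes and ductal nuclei. The fold over hepatocytes was 2.80 (2.68 to 2.93) for the Pkhd1-high and 2.95 (2.69 to 3.22) for the hepatocyte-like tumour, and these 2 comparisons share their hepatocytes. Against ductal nuclei, the Pkhd1-high tumour was at 0.497-fold (0.467 to 0.530), at the line, and was no longer called with median-of-ratios scaling (0.503-fold) or with the other ductal nuclei as reference (0.663-fold). Within the liver lobule, Tead1 was at 45.4 CPM (41.0 to 50.2) in pericentral hepatocytes, those around the central vein, and at 133 (128 to 139) in periportal hepatocytes, those around the portal tract, which is 0.340-fold (0.305 to 0.379). Pericentral hepatocytes lay below free RNA (77.5).

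TEAD proteins bind DNA at the element CATTCC. Both strands of the 250 bases before each RefSeq gene start were searched for CATTCC and its reverse complement GGAATG, in the RefSeq promoter table of build GRCm38.p6. Of the 10 members, 8 had an entry, and 6 of these held at least 1 match: Ankrd1 and Ajuba 2 each, and Ccn1, Amotl2, Yap1 and Wwtr1 1 each. No match was found in the windows of Amotl1 and Lats2, and Tead1 and Ccn2 had no entry. Of all 27025 genes in the table, 14.4% had a match in at least 1 window and 1.18% had 2 or more in a window. Of its 32851 windows, 12.6% and 1.02% did. RefSeq and GENCODE place some of these starts differently, so not every window lies outside the gene as GENCODE draws it. The RefSeq start of Ankrd1 is 255 bases inside the GENCODE gene, whose outermost transcript starts at 36120099, and both Ankrd1 matches lie in an exon of that gene. The start of Amotl2 is 1132 bases inside, and its match also lies in an annotated exon of Amotl2. The windows of Amotl1 and Lats2 lie inside their genes too. The matches of Ccn1, Ajuba, Yap1 and Wwtr1 lie before the outermost GENCODE start and overlap no annotated exon. The matches are shown because they carry the TEAD letters, and binding was not measured. Each line gives 30 bases, 5′ to 3′ on the strand of the gene, with the motif in capitals and its distance before the RefSeq start.
Ankrd1, chr19:36119950-36119979, minus strand, motif 123 bases before the start: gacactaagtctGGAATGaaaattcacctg
Ankrd1, chr19:36120037-36120066, minus strand, motif 210 bases before the start: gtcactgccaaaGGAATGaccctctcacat
Ccn1, chr3:145650071-145650100, minus strand, motif 103 bases before the start: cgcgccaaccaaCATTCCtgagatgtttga
Ajuba, chr14:54577808-54577837, minus strand, motif 164 bases before the start: tgcccctccgcgCATTCCaactgtaaacaa
Ajuba, chr14:54577830-54577859, minus strand, motif 186 bases before the start: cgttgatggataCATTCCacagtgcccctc
Amotl2, chr9:102717727-102717756, plus strand, motif 65 bases before the start: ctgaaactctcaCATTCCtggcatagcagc
Yap1, chr9:8004720-8004749, minus strand, motif 141 bases before the start: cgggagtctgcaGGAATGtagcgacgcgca
Wwtr1, chr3:57576029-57576058, minus strand, motif 136 bases before the start: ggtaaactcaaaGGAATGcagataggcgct

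The whole 250-base window of Ajuba, chr14:54577662-54577911 on the minus strand, which overlaps no annotated exon, shows its pair of matches in context.
Ajuba window: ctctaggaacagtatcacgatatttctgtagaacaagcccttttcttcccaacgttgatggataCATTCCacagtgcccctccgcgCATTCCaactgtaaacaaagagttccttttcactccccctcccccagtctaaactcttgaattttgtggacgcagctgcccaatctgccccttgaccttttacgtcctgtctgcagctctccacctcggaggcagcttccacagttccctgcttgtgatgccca

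Ankrd1 (chr19:36111961-36120099, minus strand) encodes an ankyrin-repeat protein and is a standard YAP and TEAD target. It was the member with the widest spread across the epithelium. Its level was 336 CPM (327 to 344) in Pkhd1-high nuclei, 162 (145 to 181) in Asz1 or Tinag ductal nuclei and 158 (105 to 228) in the other ductal nuclei. Each remaining class was below the free RNA level of 67.5. Hepatocyte-like tumour nuclei had 18.8 (13.1 to 26.1) from 35 UMIs, fibroblasts 19.9, stellate cells 22.9, other endothelial cells 40.1, and hepatocytes were lowest at 5.96 (5.10 to 6.92). Ankrd1 therefore separated the Pkhd1-high tumour from the hepatocyte-like tumour as well as from hepatocytes.

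The Pkhd1-high tumour had 56.4-fold (48.4 to 66.0) more Ankrd1 than hepatocytes, 17.9-fold (12.8 to 25.7) more than the hepatocyte-like tumour and 2.07-fold (1.85 to 2.33) more than ductal nuclei. The fold over hepatocytes moved between 17.8, with nuclei of more than 1 gate kept, and 105, with free RNA subtracted, and was above 2 in each setting tried. The smaller fold over ductal nuclei fell short of 2 (1.88) when each gate asked for 1 more marker, and was 2.13 (1.47 to 3.21) against the other ductal nuclei. For the hepatocyte-like tumour, the fold over hepatocytes was 3.16 (2.13 to 4.56), but 1.06 with nuclei of more than 1 gate kept and 1.32 with thinned nuclei.

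Ankrd1 was unevenly spread among the Pkhd1-high nuclei. Of 2143, 50.4% had no UMI, 18.1% had 1, 15.8% had 2 to 4 and 15.7% had 5 or more, with a highest count of 85. The 10% of nuclei with the most Ankrd1 held 66.0% of its UMIs. Ductal nuclei reached 27 UMIs at most, with 73.3% at 0 and 3.68% at 5 or more, and 92.6% of hepatocytes were at 0 in spite of their greater depth. With nuclei thinned to 2000 UMIs, a UMI was seen in 28.1% of Pkhd1-high nuclei (26.2 to 30.1), 15.2% of ductal nuclei (64 of 421), 2.87% of hepatocyte-like tumour nuclei (1.16 to 5.82) and 1.88% of hepatocytes (1.29 to 2.65). The unthinned shares were 49.6%, 26.7%, 11.8% and 7.42%. Macrophages, which were below free RNA, had 4.24% (1.39 to 9.61) after thinning and 6.57% before, at a median depth of 3229 UMIs. The thinned shares of the hepatocyte-like tumour and the hepatocytes were no higher. Macrophages are not a matched background, since expected free RNA was 19.4% of their UMIs, against 8.88% and 3.98% in these classes. With free RNA subtracted, Ankrd1 was at 14.0 CPM in the hepatocyte-like tumour and 3.41 in hepatocytes.

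**Figure D2:**
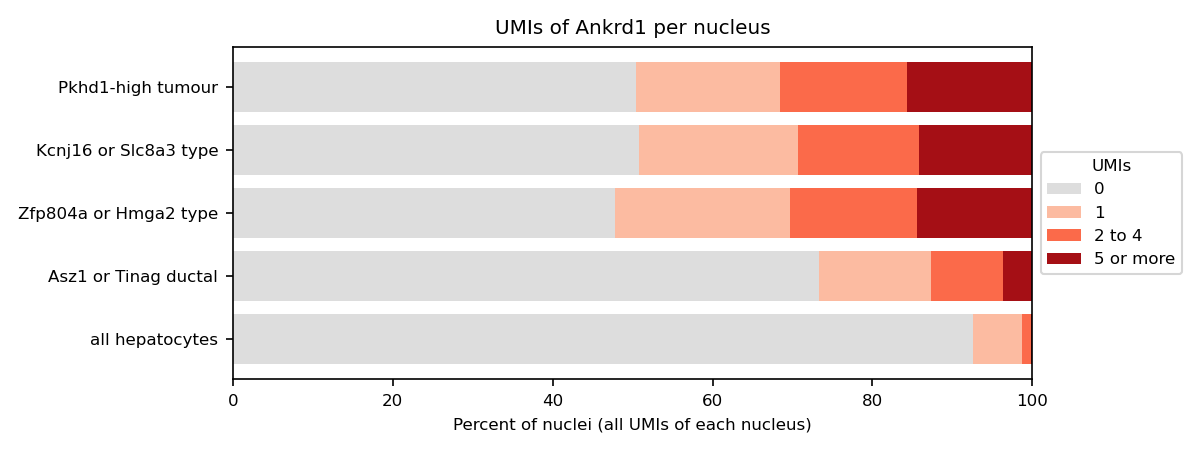
Percent of nuclei with 0, 1, 2 to 4, or 5 or more Ankrd1 UMIs, as stacked bars for 5 classes at full depth. In Pkhd1-high nuclei 15.7% had 5 or more UMIs, against 3.68% of Asz1 or Tinag ductal nuclei.

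Ccn1 and Ccn2 encode secreted matricellular proteins, long known as Cyr61 and Ctgf, and are the other classical YAP targets. Unlike Ankrd1, neither was highest in the Pkhd1-high tumour. Ccn2 did go with Ankrd1 in being higher there than in hepatocytes and in the hepatocyte-like tumour. Ccn1 (chr3:145646976-145649981, minus strand) was highest in mesothelial cells at 99.5 CPM (70.8 to 136), ductal nuclei at 95.1 (82.0 to 110) and fibroblasts at 83.5 (67.0 to 103), which were alike within counting error between neighbours. The other ductal nuclei had 33.8 (12.4 to 73.6) from 6 UMIs. Hepatocyte-like tumour nuclei had 16.1 (10.9 to 23.0), and Pkhd1-high nuclei 7.50 (6.29 to 8.89), from 134 UMIs and under the free RNA level of 13.4. The Pkhd1-high tumour, highest for Ankrd1, was therefore in place 13 of 17 for Ccn1.

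Against ductal nuclei, Ccn1 in the Pkhd1-high tumour was at 0.0789-fold (0.0627 to 0.0990), which is 12.7-fold (10.1 to 15.9) more in ductal nuclei. It was at 0.222-fold (0.0994 to 0.616) against the other ductal nuclei. Mesothelial markers, whose own class shares the high Ccn1, summed to 14.2 CPM in the Asz1 or Tinag ductal nuclei, with 1 of 7 at 0, below the 42.3 CPM of free RNA and the 5411 of mesothelial cells. Pkhd1-high nuclei had 17.2 CPM of that list. Nuclei of either class that met 3 or more mesothelial markers had been set aside, so the gate itself limits these sums. The part of mesothelial RNA in the Ccn1 values was not tested. Over hepatocytes, the Pkhd1-high tumour had 1.54-fold (1.21 to 1.96) more Ccn1, and 3.82-fold more than periportal hepatocytes alone, a reference added after the data were seen. Across the lobule, Ccn1 was at 10.3 CPM (8.31 to 12.7) in pericentral and 1.97 (1.37 to 2.74) in periportal hepatocytes, 5.26-fold (3.52 to 8.01). With Tead1 that made 1 member called higher and 1 lower in pericentral hepatocytes, where 4.3% and 4.48% of all genes were. The hepatocyte-like tumour had 3.30-fold (2.15 to 4.93) more than hepatocytes, and 1.77-fold with 1 more marker per gate.

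Ccn2 (chr10:24595442-24598683, plus strand) was highest in fibroblasts at 280 CPM (249 to 314) and in smooth muscle cells and pericytes at 192 (143 to 252), both beyond counting error of the next class. The other ductal nuclei had 84.5 (47.3 to 139), stellate cells 74.2 (62.6 to 87.2) and Asz1 or Tinag ductal nuclei 54.1 (44.4 to 65.4). Pkhd1-high nuclei had 33.0 (30.4 to 35.8), the hepatocyte-like tumour 12.3 (7.83 to 18.5) and hepatocytes 2.93 (2.33 to 3.62), all below free RNA at 50.4. The fold of the Pkhd1-high tumour over hepatocytes was 11.3 (8.96 to 14.3), between 5.51 with nuclei of more than 1 gate kept and 32.8 with free RNA subtracted. Against ductal nuclei it was at 0.609-fold (0.495 to 0.756), and it was past the 2-fold line against the other ductal nuclei (0.390-fold). The hepatocyte-like tumour had 4.22-fold (2.54 to 6.76) more than hepatocytes, from 23 UMIs, and 1.86-fold with thinned nuclei. Ccn2 was thus higher in these mesenchymal classes than in either tumour class as a whole, and it differed between kinds of Pkhd1-high nuclei.

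Ajuba (chr14:54567472-54577558, minus strand) encodes a LIM-domain protein that binds LATS kinases and damps them. Its counts were low. It was at 33.2 CPM (15.2 to 63.1) in smooth muscle cells and pericytes from 9 UMIs, 25.8 (19.2 to 33.9) in ductal nuclei, 11.6 (10.1 to 13.3) in Pkhd1-high nuclei, 9.13 (5.32 to 14.6) in hepatocyte-like tumour nuclei and 1.18 (0.820 to 1.65) in hepatocytes, with free RNA at 5.81. The Pkhd1-high tumour was 9.84-fold (6.82 to 14.6) and the hepatocyte-like tumour 7.71-fold (4.04 to 14.2) above the same hepatocytes. Against ductal nuclei the Pkhd1-high tumour was at 0.452-fold (0.331 to 0.626). That call was lost with thinned nuclei (0.607-fold) and turned to 1.03-fold (0.283 to 8.59) against the other ductal nuclei, which had only 2 UMIs.

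Amotl1 (chr9:14541966-14645056, minus strand) and Amotl2 (chr9:102716672-102733418, plus strand) encode angiomotin-like scaffold proteins that hold YAP at cell junctions, and Amotl2 is also a YAP target. Amotl1 was a gene of endothelium and mesenchyme, at 210 CPM (179 to 245) in sinusoidal endothelial cells, 201 (181 to 222) in other endothelial cells, 151 in smooth muscle cells and pericytes, and 101 in fibroblasts. It was at 12.1 (7.78 to 18.1) in ductal nuclei, 6.05 (4.96 to 7.30) in Pkhd1-high nuclei, 3.22 (1.18 to 7.01) in the hepatocyte-like tumour and 1.85 (1.38 to 2.41) in hepatocytes, all below free RNA at 21.4. The other ductal nuclei had 67.6 (34.9 to 118). Their mesothelial marker list summed to 287 CPM, above free RNA, with 4 of 7 markers at 0, and its part in their Amotl1 was not tested. The Pkhd1-high tumour was at 3.28-fold (2.34 to 4.64) of hepatocytes, but at 1.72-fold with nuclei of more than 1 gate kept. Amotl2 was highest in mesothelial cells at 163 CPM (126 to 209), then in ductal nuclei at 77.9 (66.1 to 91.2) and stellate cells at 50.3. Pkhd1-high nuclei had 27.7 (25.3 to 30.3), the hepatocyte-like tumour 23.6 (17.2 to 31.7) and hepatocytes 14.5 (13.1 to 15.9), with free RNA at 26.0. The Pkhd1-high tumour was 1.91-fold (1.68 to 2.19) above hepatocytes, and past 2-fold with thinned nuclei (2.53). It was at 0.356-fold (0.296 to 0.429) of the Asz1 or Tinag ductal nuclei and at 0.984-fold (0.419 to 3.04) of the other ductal nuclei.

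Lats2 (chr14:57689662-57758388, minus strand) encodes a LATS kinase, the brake on YAP, and is itself induced by YAP as feedback. Its levels ran from 148 CPM (112 to 191) in mesothelial cells, 124 in fibroblasts and 123 in stellate cells to 87.5 (75.0 to 102) in ductal nuclei, 55.6 (52.2 to 59.1) in Pkhd1-high nuclei, 40.8 (32.1 to 51.1) in the hepatocyte-like tumour and 35.5 (33.3 to 37.7) in hepatocytes. No neighbours among the 10 highest classes differed beyond counting error. The Pkhd1-high tumour was 1.57-fold (1.43 to 1.71) above hepatocytes and at 0.635-fold (0.540 to 0.750) of ductal nuclei. Against the other ductal nuclei, with 10 UMIs, it was at 0.986-fold (0.534 to 2.06). The hepatocyte-like tumour was within counting error of hepatocytes at 1.15-fold (0.899 to 1.45) and lower than ductal nuclei at 0.466-fold (0.351 to 0.614).

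Read across the 10 genes, the Pkhd1-high tumour had 5 members called higher than in hepatocytes (Tead1, Ankrd1, Ccn2, Ajuba and Amotl1) and 0 called lower. Of all 16919 genes tested, 27.4% were called higher and 16.1% lower. The median log2 ratio, of CPM with 1 added, was 1.10 for the members and 0.25 for all genes tested. Median-of-ratios scaling took away a shift of 0.23 in log2 here and 0.15 for the hepatocyte-like tumour, and it left the same counts of members called. The hepatocyte-like tumour also had 5 higher (Tead1, Ankrd1, Ccn1, Ccn2 and Ajuba) and 0 lower, where 21% of all genes tested were called higher and 9.21% lower, with medians of 1.09 and 0.19. With thinned nuclei 3 of its members were called, Ajuba (11.6-fold) then having too few UMIs and Amotl2 passing the line (2.11-fold), while Amotl1 (1.75-fold) passed it at 4.48-fold with 1 more marker per gate. The ductal nuclei had 9 members higher than the same hepatocytes, all but Yap1, where 25.3% of genes were higher and 12.9% lower, with medians of 2.41 and 0.22. Their folds were 27.2 (22.5 to 32.9) for Ankrd1, 21.8 for Ajuba, 19.5 for Ccn1, 18.5 for Ccn2, 6.58 for Amotl1, 5.63 for Tead1, 5.38 for Amotl2, 2.57 for Wwtr1 and 2.47 for Lats2.

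Set against ductal nuclei the direction turned. The Pkhd1-high tumour had 1 member called higher, Ankrd1, and 5 called lower (Tead1, Ccn1, Ajuba, Amotl1 and Amotl2), where 9.95% of genes tested were higher and 13.1% lower, and the median log2 ratio was -0.80 for the members against -0.03 for all genes. The hepatocyte-like tumour had 0 higher and 8 lower, all but Yap1 and Tead1, where 6.42% of genes were higher and 9.14% lower, and the medians were -1.52 and -0.02. Its folds of ductal nuclei were 0.116 (0.0794 to 0.165) for Ankrd1, 0.169 for Ccn1, 0.228 for Ccn2, 0.265 for Amotl1, 0.303 for Amotl2, 0.354 for Ajuba, 0.414 for Wwtr1 and 0.466 for Lats2. Against the other ductal nuclei, 3 of 8 members tested were called lower in the hepatocyte-like tumour, Ankrd1 (0.119-fold, 0.0704 to 0.203), Ccn2 (0.146-fold, 0.0730 to 0.301) and Ccn1 (0.477-fold, with an interval of 0.195 to 1.40 that held 1), and 0 higher, where 15.8% of genes were higher and 10.3% lower. Ajuba and Amotl1 had too few UMIs for a call. In the Pkhd1-high tumour, 1 was higher, Ankrd1, and 3 were lower (Ccn1, Ccn2 and Amotl1), with 10.2% and 19.3% of all genes. Both tumour comparisons share their ductal nuclei. For the Pkhd1-high tumour, Ankrd1 was called higher and Ccn1 and Amotl1 lower against both ductal references, although Amotl1 was short of the line against Asz1 or Tinag ductal nuclei with nuclei of more than 1 gate kept (0.525), median-of-ratios scaling (0.504) or the mean over nuclei (0.540). In the hepatocyte-like tumour, Ajuba was no longer called with thinned nuclei (0.539), Amotl1 with 1 more marker per gate (0.629) and Lats2 with mitochondrial UMIs at most 1% (0.514) or the mean over nuclei (0.508), while Tead1 (0.524) was called with 1 more marker (0.478), free RNA subtracted (0.489) or thinned nuclei (0.484).

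Summed markers of smooth muscle differed between the epithelial classes mainly by Mylk. The list of 8 summed to 584 CPM in Asz1 or Tinag ductal nuclei, 419 in hepatocyte-like tumour nuclei, 281 in hepatocytes and 65.5 in Pkhd1-high nuclei, with free RNA at 208. Nearly all of it was Mylk, at 551 and 391 CPM in the first 2 classes, and 2 of 8 markers were at 0 in each. Mylk was at 272 CPM in hepatocytes and 42.5 in Pkhd1-high nuclei. In ductal nuclei Rgs5 was at 24.8 CPM and Myh11 at 5.06, both above hepatocytes (4.98 and 0.488), and Acta2 and Myocd had 0 UMIs. Notch3 was at 1.52 CPM there, against 1.01 in hepatocytes, and Tagln at 1.01 against 1.53. In the hepatocyte-like tumour Notch3 was at 15.6 CPM, Rgs5 at 8.05 and Acta2 at 2.15, against 1.01, 4.98 and 0.209 in hepatocytes, and Myh11 and Cnn1 had 0 UMIs. Pkhd1-high nuclei had Notch3 at 11.2 CPM and Rgs5 at 9.74, also above hepatocytes, and Tagln at 0.896 and Myh11 at 0.280, below them. In the smooth muscle and pericyte class Notch3 stood at 1027 CPM, Rgs5 at 890, Myh11 at 702 and Acta2 at 211. The part of these cells in the members' values was not tested. Fibroblast markers summed to 60.2 CPM in ductal nuclei, below 286 in free RNA. Epithelial nuclei that met 3 or more markers of either list had been set aside, so the gate itself limits these sums.

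**Figure D3:**
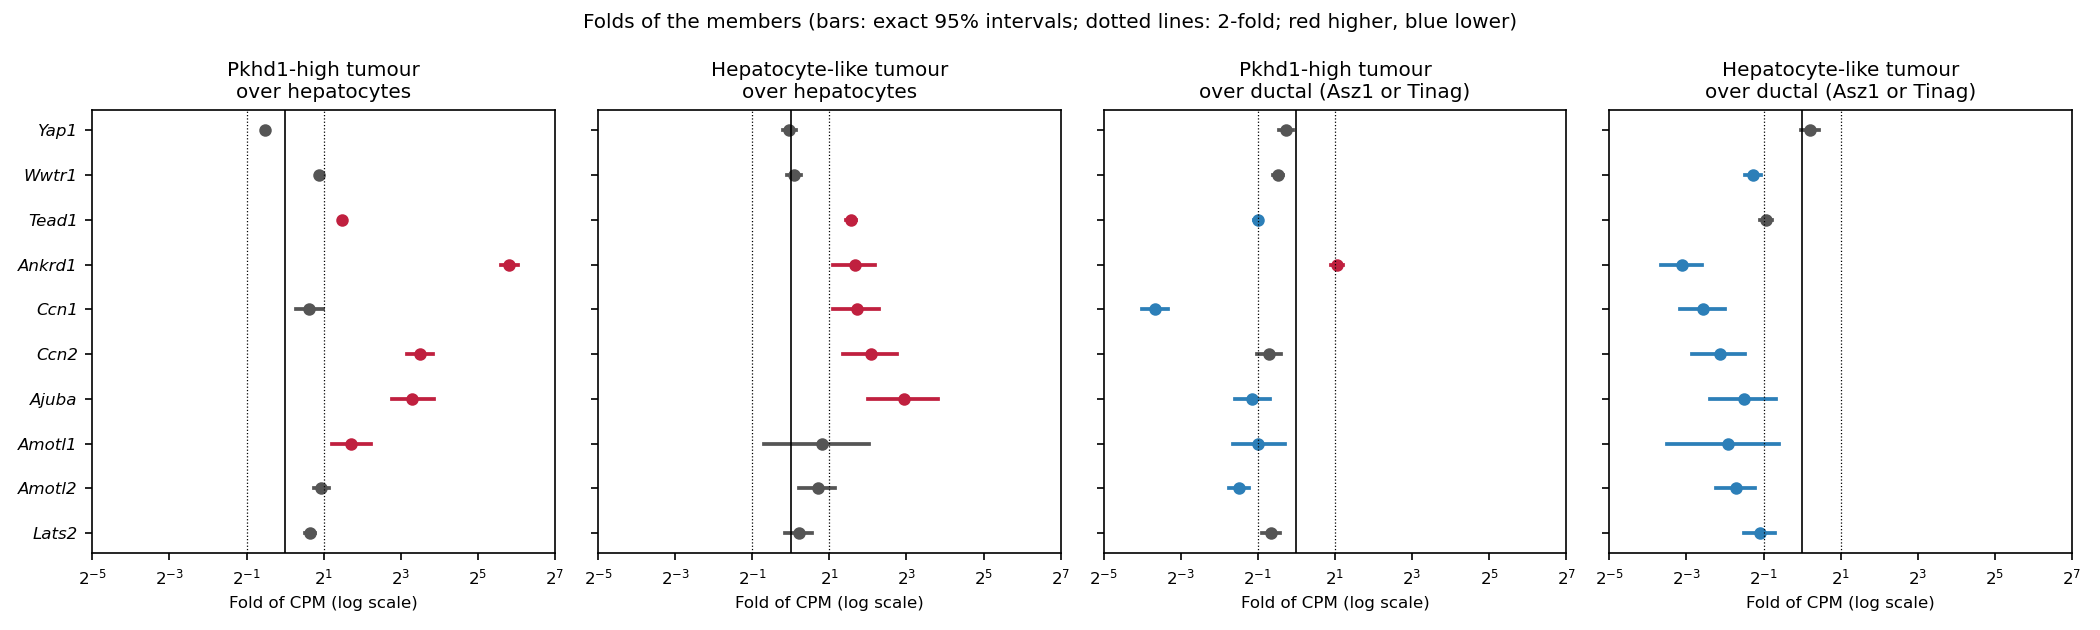
Fold of each of the 10 genes in 4 comparisons, on a log axis, with exact 95% intervals for counting error and dotted lines at 2-fold. Red marks genes called higher in the tumour class, blue those called lower and grey those within 2-fold, and Ankrd1 is the gene called higher in the Pkhd1-high tumour against both hepatocytes and ductal nuclei.

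The hepatocyte-like and the Pkhd1-high tumour differed from each other at 3 members. Besides Ankrd1, Ccn2 was 2.67-fold (1.76 to 4.25) higher and Ccn1 was at 0.466-fold (0.312 to 0.717) in the Pkhd1-high class, while Tead1 was at 0.949-fold (0.871 to 1.04). Of all genes tested in that comparison, 11.7% were called higher and 12.5% lower.

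Within the Pkhd1-high tumour, nuclei that did not divide were divided by their markers into a type with Kcnj16 or Slc8a3 (1068 nuclei), a type with Zfp804a or Hmga2 (257 nuclei), 10 with both and 704 with neither. A further 104 nuclei met at least 3 of 8 markers of division. Ccn2 was the member that differed most between these kinds. It was at 114 CPM (101 to 128) in the Zfp804a or Hmga2 type and at 12.0 (9.82 to 14.5) in the Kcnj16 or Slc8a3 type, 9.48-fold (7.55 to 12.0), with 34.0 in the nuclei of neither type. With nuclei thinned to 2000 UMIs, a Ccn2 UMI was seen in 20.8% (16.0 to 26.3) of the former and 2.64% (1.76 to 3.79) of the latter, from 38.1% and 6.93% unthinned at median depths of 8350 and 7640.5 UMIs. Macrophages had 4.24% after thinning and 6.57% before. Expected free RNA was 19.4% of UMIs in macrophages and 8.12% in the Kcnj16 or Slc8a3 type, so macrophages are not a matched background for it. Fibroblasts, the class highest in Ccn2, had 34.4%. Fibroblast markers summed to 37.9 CPM in the Zfp804a or Hmga2 type, with 1 of 8 at 0, and to 40.2 in the Kcnj16 or Slc8a3 type, both below the 286 of free RNA. Tumour nuclei that met 3 or more fibroblast markers had been set aside, so the gate itself limits these sums. The part of fibroblast RNA in the Ccn2 values was not tested.

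The other members differed less between these types. Amotl2 was lower in the Zfp804a or Hmga2 type, 13.6 CPM (9.36 to 19.1) against 29.3 (25.8 to 33.1), 0.464-fold (0.313 to 0.668). With Ccn2 that made 1 member called higher and 1 lower, where 7.58% and 12.2% of genes were. Ankrd1 was at 248 CPM (228 to 268) in the Zfp804a or Hmga2 type, 305 (294 to 317) in the Kcnj16 or Slc8a3 type and 393 (376 to 410) in nuclei of neither, so that each of these 3 kinds was above the ductal nuclei. Yap1 was at 101 and 135 CPM in the typed nuclei, 0.746-fold (0.647 to 0.856), while Tead1, Wwtr1, Ccn1, Amotl1 and Lats2 had intervals of the fold that held 1.

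Ankrd1 was at 482 CPM (445 to 521) in dividing Pkhd1-high nuclei against 324 (316 to 333) in the rest, 1.49-fold (1.37 to 1.61). Ccn2 went the other way at 0.616-fold (0.402 to 0.905), on 27 UMIs in dividing nuclei. Of the 10 members, 0 were called higher and 2 lower, Ccn1 and Amotl1, on 5 and 4 UMIs and with intervals that held 1. Of all genes, 7.66% were called higher and 7.76% lower. Dividing nuclei were deeper, at a median of 11835.5 UMIs against 7250, and the part of depth in these values was not tested.

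Nuclei that met at least 3 of 7 hypoxia markers such as Ndrg1 and Egln3 (539 nuclei, median 9000 UMIs) were set against those that met 0 (314 nuclei, median 5235.5 UMIs). Ccn2 was at 53.6 CPM (47.5 to 60.2) in the former and 20.5 (14.6 to 28.1) in the latter, 2.61-fold (1.86 to 3.75), the 1 member called, where 4.31% of genes were higher and 4.84% lower. Ankrd1 was at 398 (382 to 416) and 262 (240 to 286), 1.52-fold (1.38 to 1.68), and Amotl2 at 0.674-fold (0.501 to 0.912). The hypoxia classes hold the tumour types in unequal shares, so the comparison was repeated within a type. In the Kcnj16 or Slc8a3 type, Ankrd1 was at 396 CPM (372 to 421) in 265 hypoxic and 151 (117 to 192) in 84 low-hypoxia nuclei, 2.62-fold (2.04 to 3.40), the latter with an interval that holds the 162 of ductal nuclei. Ccn1 was also past 2-fold on 20 against 1 UMIs (3.43-fold, 0.549 to 142), where 7.35% of genes were called higher and 6.13% lower. In the Zfp804a or Hmga2 type, Ccn2 was at 139 CPM (118 to 162) in 112 hypoxic and 38.3 (21.0 to 64.3) in 50 low-hypoxia nuclei, 3.62-fold (2.09 to 6.77), the 1 called of 6 members tested, where 6.6% of genes were called higher and 4.88% lower. Ankrd1 was 1.59-fold (1.21 to 2.13) there, with 170 CPM (130 to 218) in low-hypoxia nuclei. Depth moved with hypoxia in every one of these splits, and its part was not tested.

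**Figure D4:**
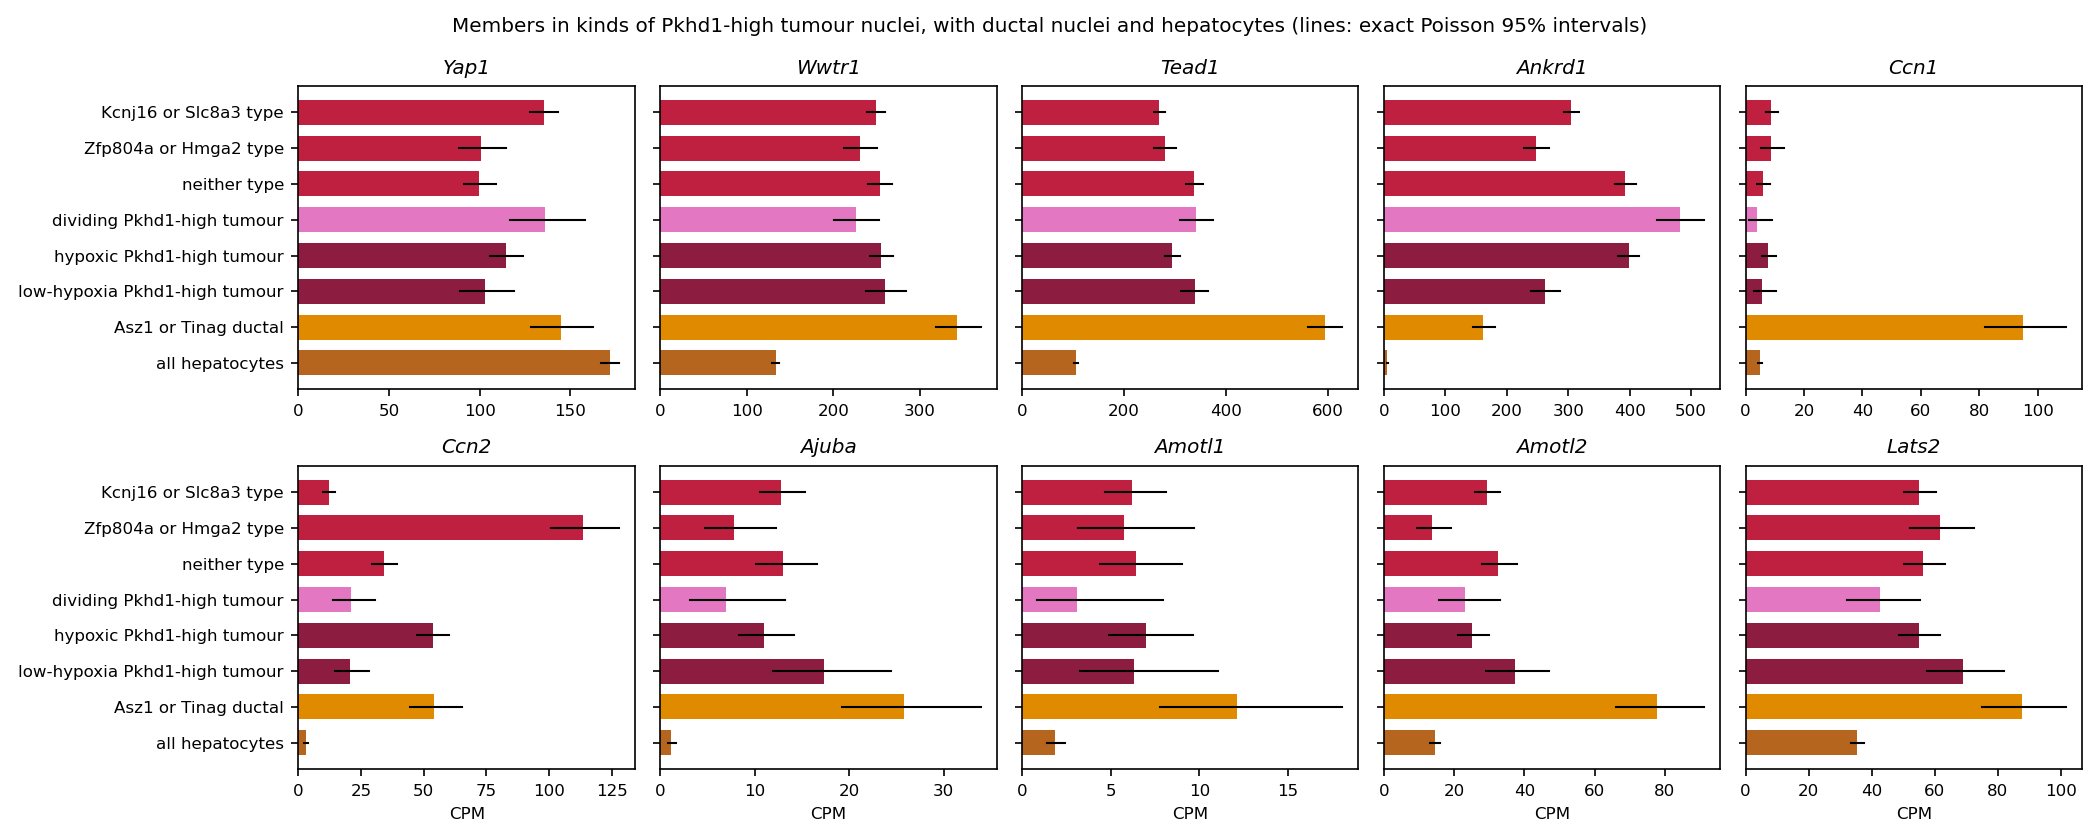
Level in CPM of each of the 10 genes in kinds of Pkhd1-high tumour nuclei, with ductal nuclei and hepatocytes beside them. Bars start at 0 and error bars are exact Poisson 95% intervals. Ccn2 is high in the Zfp804a or Hmga2 type (114 CPM) and low in the Kcnj16 or Slc8a3 type (12.0 CPM), while Ankrd1 is above the ductal level in each of the 6 kinds plotted.

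In the stroma the members separated fibroblasts from stellate cells, the vitamin A storing pericytes of the liver. Ccn1 was 11.0-fold (6.30 to 20.4), Ccn2 3.78-fold (3.09 to 4.64) and Wwtr1 2.67-fold (2.32 to 3.08) higher in fibroblasts, 3 of 9 members tested and 0 lower, where 9.43% of genes were called higher and 7.19% lower. Yap1 and Lats2 were within counting error between them, at 0.931-fold (0.759 to 1.14) and 1.01-fold (0.811 to 1.26).

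Beyond the 10 members, 47 other Hippo pathway genes were followed in 4 groups. Between the Pkhd1-high tumour and hepatocytes, 21 of 45 tested were called higher and 2 lower, set beside the 27.4% and 16.1% of all genes. Of the core kinases and adaptors, 4 of 12 were higher: Map4k4, a kinase that acts in parallel to the Hippo kinases on LATS, stood at 345 CPM against 13.6, 25.4-fold (22.9 to 28.2), Wwc2, a scaffold that activates LATS, was 2.36-fold (2.24 to 2.48), and Stk4 and Sav1 were the others. Of 11 junction and polarity genes, 2 were higher, Wtip, an Ajuba relative, 12.9-fold (8.51 to 20.5) and Frmd6 2.92-fold (2.65 to 3.21). Of 17 further YAP targets, 12 were higher and 2 lower. Myof, a membrane-repair protein gene, was at 268 CPM against 6.16, 43.4-fold (37.4 to 50.8), and Ptpn14, a phosphatase that restrains YAP and is itself a target, 38.9-fold (30.5 to 50.4).

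The TEAD partners and cofactors gave the contrast with the largest fold. Vgll3, a Vestigial-like cofactor that binds TEADs in place of YAP, was at 250 CPM (242 to 257) in Pkhd1-high nuclei, 154 in fibroblasts, 143 in mesothelial cells, 32.4 (24.9 to 41.3) in ductal nuclei, 10.2 in the hepatocyte-like tumour and 4.07 in hepatocytes, with free RNA at 48.8. It was thus 61.3-fold (51.0 to 74.3) above hepatocytes and 7.72-fold (6.03 to 10.0) above ductal nuclei, and it was at 228 and 219 CPM in the Kcnj16 or Slc8a3 and the Zfp804a or Hmga2 types. Tead4 went the other way among these classes, at 63.2 CPM (52.6 to 75.3) in ductal nuclei, 13.4 in the hepatocyte-like tumour, 8.74 (7.42 to 10.2) in Pkhd1-high nuclei and 0.557 in hepatocytes. It was 113-fold (67.2 to 205) above hepatocytes in ductal nuclei and 15.7-fold (9.36 to 28.1) in the Pkhd1-high tumour. Vgll1 and Vgll2 had 0 UMIs in both compared classes.
The promoter windows of Vgll3 and Ptpn14 also held a CATTCC match each, outside the gene and its exons in GENCODE. These genes were picked because they share the pattern of Ankrd1 over hepatocytes. Matches in the remaining other Hippo pathway genes are not given, Myof and Map4k4 with the same pattern among them. Whether a match goes with this pattern was therefore not tested.
Vgll3, chr16:65815114-65815143, plus strand, motif 63 bases before the start: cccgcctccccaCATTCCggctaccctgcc
Ptpn14, chr1:189728110-189728139, plus strand, motif 146 bases before the start: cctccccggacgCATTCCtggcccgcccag

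Against ductal nuclei, 2 of 43 of these genes were higher in the Pkhd1-high tumour, Vgll3 and Axl, and 11 were lower, beside 9.95% and 13.1% of all genes. Wwc1, also called KIBRA and a scaffold that activates LATS, was at 218 CPM against 865, 0.252-fold (0.238 to 0.267). Amot, the founding angiomotin, was at 0.334-fold (0.293 to 0.382), Wtip at 0.323-fold, and the targets Rbms3 and Crim1 at 0.249-fold and 0.290-fold. Tead2 was at 0.105-fold (0.0531 to 0.208) on 19 and 20 UMIs. In the hepatocyte-like tumour, 18 of 42 were higher than in hepatocytes and 0 lower, with 21% and 9.21% of all genes: Map4k4 13.0-fold (11.2 to 15.1), Mob1b 2.08-fold, Wtip 17.3-fold, Fat4 3.25-fold on 4 UMIs with an interval that held 1 (0.803 to 9.77), Tead4 24.1-fold, Vgll3 2.50-fold, Arhgef17 17.1-fold and Myof 11.4-fold. The 18 became 10 with thinned nuclei. Against ductal nuclei 0 of 40 were higher and 13 lower, beside 6.42% and 9.14%, among them Wwc1 (0.466-fold), Wwc2 (0.440), Wtip (0.431), Tead2 (0.106), Tead4 (0.212), F3 (0.138) and Rbms3 (0.188). The ductal nuclei themselves had 21 of 44 higher and 1 lower than hepatocytes, beside 25.3% and 12.9% of all genes, with Tead2 96.8-fold above on 3 UMIs in hepatocytes, Arhgef17 69.8-fold, Ptpn14 46.4-fold, Wtip 40.1-fold and Map4k4 15.3-fold.

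**Figure D5:**
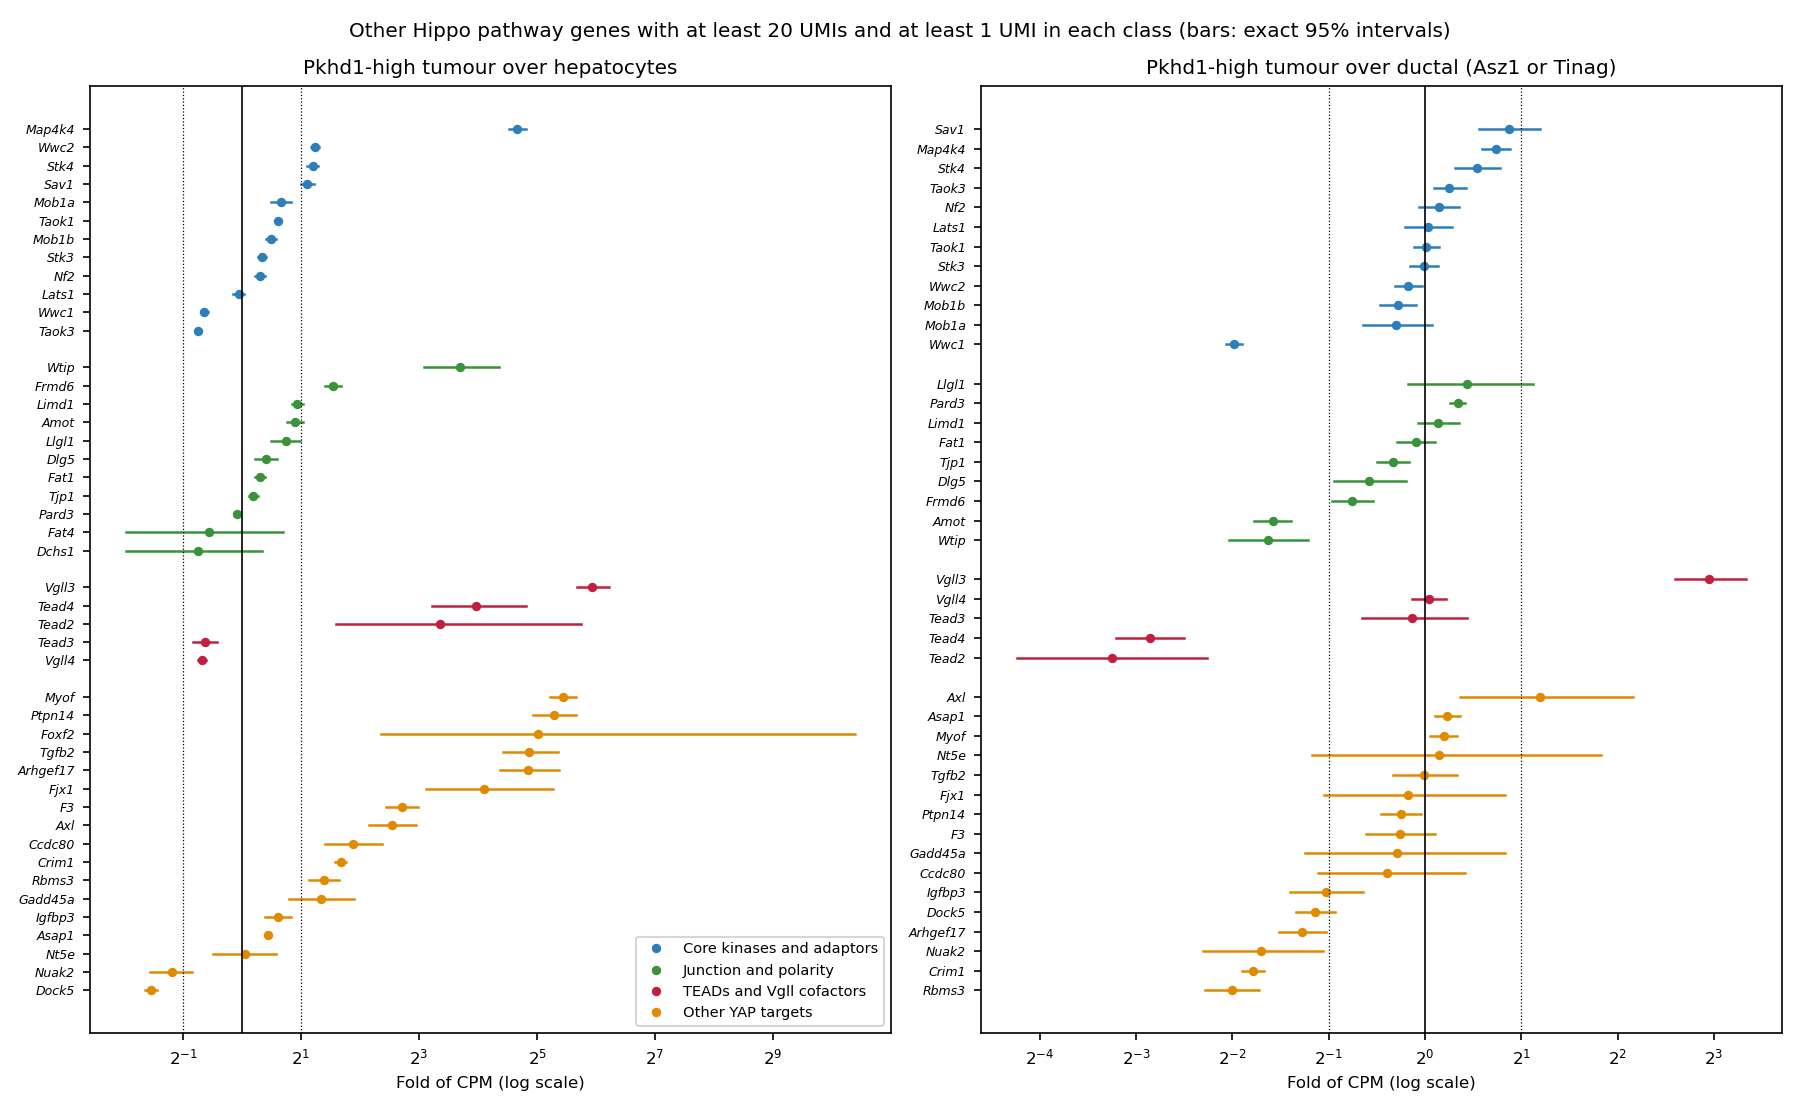
Fold of the other Hippo pathway genes in the Pkhd1-high tumour over hepatocytes and over ductal nuclei, grouped by role, on a log axis with exact 95% intervals. Vgll3 is above 2-fold in both comparisons, and Wwc1 and Amot are called lower against ductal nuclei.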

How the data were processed

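The deposited values are UMI counts per gene and barcode, without normalization by the authors. Per the submitters' processing notes, Cell Ranger 5.0 and the mm10 build were used. The header of the filtered matrix gives Cell Ranger 5.0.0 and that of the unfiltered matrix version 4, per the file headers. The counting of intronic reads and the way both samples were joined are not given in the sources used here. All barcodes carry 1 suffix and 0 occur more than once. The filtered barcodes held 95130408 UMIs, 64.3% of the unfiltered total.

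Barcodes with at least 1000 UMIs and at most 5% mitochondrial UMIs were kept (14850; 2319 removed). A marker was met at the UMI count that free RNA alone reaches with probability 0.01 or less, and a class needed 3 markers (hepatocytes 6, hepatocyte-like tumour 2). Free RNA came from 49929 unfiltered barcodes with a mean of 672 UMIs. No doublet caller was run, and 954 nuclei that met more than 1 gate or tied were set aside. The setting that kept nuclei of more than 1 gate did not return those that met both the Pkhd1-high and the Asz1 or Tinag ductal gate. UMIs were summed per class and divided by the class total. Shares of nuclei with a UMI were also taken after thinning each nucleus to 2000 UMIs, leaving out shallower nuclei. Kupffer cells (48 nuclei) and B cells (33) were small classes. With 1 pooled sample no test was made. Folds and intervals were tried on simulated Poisson counts, the model that the intervals assume. That trial cannot show how they hold where UMIs are unevenly spread among nuclei.

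All 10 members are named. Of the 47 other Hippo genes, the 2 with the largest fold per comparison and role among those called are named, and for Yap1, Tead1 and Ankrd1 the 5 genes of highest Pearson r over the 17 classes. Axl, Stk4 and Sav1 were named after their values were seen. The members, gene lists and markers were chosen with earlier results of these data known. Settings tried in turn were the UMI and mitochondrial limits, the gate, nuclei of more than 1 gate, free RNA, scaling, thinning, fold and gene minimum, and, added after the data were seen, other reference classes. Tools were Python 3.11.15, numpy 2.4.6, scipy 1.17.1, pandas 2.3.3 and matplotlib 3.10.9.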

Additional observations from a re-analysis of the deposited data

Results flagged for a closer look

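The 7444 kept barcodes that met no gate enter no comparison, and 9 of the 10 members were above the free RNA level in them, all but Ccn2. For 6 of these the 95% intervals did not overlap. The share of all genes above free RNA in these barcodes was not measured, so the counts show nothing particular to the members. Yap1 was at 115 CPM there, with free RNA at 77.6. Wwtr1 was at 172 CPM, with free RNA at 89.3. Tead1 was at 244 CPM, with free RNA at 77.5. Ankrd1 was at 92.6 CPM, with free RNA at 67.5. Ccn1 was at 18.2 CPM, with free RNA at 13.4. Lats2 was at 54.2 CPM, with free RNA at 29.7.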

How the results depend on the processing

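No paired analysis was possible because all nuclei stand in 1 matrix with no sample names, and no sample could be left out in turn for that reason. Of 96 counts of called genes set against their main value, 90 stayed within 1.5 times it and 6 did not. The 5 members called between the Pkhd1-high tumour and hepatocytes became 9 at a 1.5-fold line, where the share of all genes called went from 27.4% higher and 16.1% lower to 39.1% and 22.1%. Between the hepatocyte-like tumour and hepatocytes, the 5 members became 3 with thinned nuclei, and the 18 other Hippo genes became 11 with thinned nuclei (10 higher, 1 lower) and 9 with at least 100 UMIs per gene, fewer genes being tested in both. All genes went from 21% higher and 9.21% lower to 14.6% and 11.4% with thinned nuclei and 14.3% and 9.68% at 100 UMIs. Between the hepatocyte-like tumour and ductal nuclei, the 13 other Hippo genes became 21 at 1.5-fold (3 higher, 18 lower), and the 8 members became 3 with the other ductal nuclei as reference, where there were fewer nuclei and 8 members could be tested. All genes went from 6.42% higher and 9.14% lower to 15.2% and 17.5% at 1.5-fold and 15.8% and 10.3% with that reference. Of 480 folds, 415 stayed within the interval of the main fold, 64 moved past it and 1 that had been past the 2-fold line changed direction: Ajuba between the Pkhd1-high tumour and ductal nuclei, at 1.03-fold with the other ductal nuclei. Another 6, within 2-fold, crossed 1. With the other ductal nuclei as reference these were Wwtr1 in the Pkhd1-high tumour (0.718 to 1.15) and Yap1 in the hepatocyte-like tumour (1.15 to 0.988). The others were Yap1 (0.971 to 1.11 with mitochondrial UMIs at most 1%), Wwtr1 (1.07 to 0.963 with median-of-ratios scaling and 0.966 thinned) and Amotl1 (1.75 to 0.995 thinned) between the hepatocyte-like tumour and hepatocytes. A minimum of 500 UMIs gave the same classes, and the 1.5-fold line and the gene minimum change calls but no fold. Folds under these settings equal the main fold by construction. They are among the 415 and say nothing about stability. Depth limits Amotl1, Ajuba, Ccn2 and Ccn1 most, with 6, 17, 23 and 30 UMIs in the hepatocyte-like tumour.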

Other observations

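Pkhd1-high nuclei thinned to 2000 UMIs were set apart by whether they held an Ankrd1 UMI (597 with, 1526 without), a split by a measured value that gets no test. Ccn2 was at 51.1 CPM in nuclei with Ankrd1 and 27.2 in those without, 1.88-fold (1.33 to 2.65), and Tead1 at 336 and 271 CPM, 1.24-fold (1.10 to 1.40). The tumour marker Ccnd3 was lower in nuclei with Ankrd1, at 0.781-fold (0.759 to 0.804). The intervals of Yap1, Wwtr1, Ccn1, Ajuba, Amotl1, Amotl2 and Lats2 held 1. The nuclei with Ankrd1 were a little deeper before thinning, at a median of 7941 against 7237.5 UMIs. Among ductal nuclei (64 with, 357 without), Ccn1 was the member that differed, at 305 CPM in nuclei with Ankrd1 and 60.2 in those without, 5.06-fold (3.19 to 7.99). The intervals of the other 8 members held 1, that of Ccn2 at 1.22-fold (0.455 to 2.81), and Peg3, a marker of the Pkhd1-high gate, was 1.69-fold (1.34 to 2.11).

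The genes whose levels ran most like a member's over the 17 classes were ranked by Pearson r of log2 CPM with 1 added, among 12076 genes. The classes share libraries and differ in depth, so r is a description without a p-value. For Ankrd1 these were Enah (0.94), Tesc (0.90), Tmpo (0.88), Wee1 (0.87) and the gate marker Peg3 (0.87), each highest in Pkhd1-high nuclei. Enah, an actin regulator, was at 633 CPM there. For Tead1 they were Sh3rf1 (0.92), Cttn (0.91), Nlgn2 (0.90), Spaca6 (0.90) and Kalrn (0.89). For Yap1 they were Nfia (0.93), Ppp2r3a (0.88), Ahdc1 (0.88), Rbfox2 (0.87) and Zfp410 (0.86).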
